A study of Caenorhabditis elegans with 9 samples.

Results

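The endoplasmic reticulum (ER) chaperones and stress sensors described here are 10 genes of *C. elegans*, taken by name from the 46739 genes of the count table. Earlier results of these data were known when they were chosen. Of these, 6 encode chaperones and folding factors of the ER lumen (*hsp-3*, *hsp-4*, *enpl-1*, *crt-1*, *pdi-6* and *dnj-7*), 3 encode the sensors of the ER membrane (*ire-1*, *pek-1* and *atf-6*), and *xbp-1* encodes a transcription factor. All 10 had enough reads to be tested, among 16817 genes for which over 3 libraries held over 5 reads each.

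The ER folds proteins that a cell secretes or places in its membranes, and the unfolded protein response (UPR) adjusts its folding capacity to demand. In this response IRE-1 splices the *xbp-1* mRNA so that it encodes an active factor, PEK-1 phosphorylates the initiation factor eIF2 alpha and slows translation, and ATF-6 is a membrane-bound factor whose cytosolic part is released. The chaperones bind folding proteins or form and rearrange their disulfide bonds, and *hsp-4* is widely used in the worm as the reporter of the IRE-1 and XBP-1 branch.

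Whole worms were used, and N2 was the wild type of the study. For qRT-PCR the paper plated synchronized L1 larvae on RNAi plates and collected N2 worms at the L4 stage. Its account of the RNA sequencing names neither strain nor stage, so a common stage of these libraries is not given. The worms were fed bacteria carrying the empty vector (EV), *cco-1* RNAi or *his-3* RNAi, and 3 libraries of polyadenylated RNA were made from each group. *cco-1* encodes a subunit of complex IV of the respiratory chain, and *his-3* a histone H2A that shares its sequence with other H2A genes, so that its RNAi is not specific to 1 gene. By the labels the groups differ only in the RNAi, and the comparisons ask what mitochondrial stress and histone stress do to the levels of these mRNAs.

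The reads on genes numbered from 25129763 to 32017517 per library. Both targeted genes were lower in their own RNAi, though not only there. *cox-5B*, the name of *cco-1* in the annotation, was at -1.42 (log2 fold change against EV) in worms fed *cco-1* RNAi and at -0.42 in those fed *his-3* RNAi, and *his-3* was at -0.68 with its own RNAi and at -3.28 under *cco-1* RNAi. *his-3* had only 12 to 179 reads in a library. Reads that align equally to other H2A genes were left uncounted, so its values are uncertain. All 9 pairs of libraries of the same group differed by more than sampling noise, with a chi-square between 3.24 and 14.6 per gene, and the most distant pair was *his-3* RNAi replicates 1 and 2. The labels do not say whether the libraries of a group came from separate cultures, so p-values measure only the spread between these libraries.

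In EV worms *crt-1* had the highest level of the 10 genes and *atf-6* the lowest. On an RPKM scale (reads per kilobase of exon and megaread, from TMM-scaled counts), the EV level was 1319 ± 32.7 for *crt-1*, 514 ± 15.8 for *hsp-3*, 302 ± 0.89 for *hsp-4*, 273 ± 2.56 for *enpl-1*, 247 ± 5.37 for *pdi-6* and 243 ± 3.5 for *xbp-1* (mean ± SD, n = 3). The chaperone *dnj-7* and the sensors were much lower on the same scale, with 48.7 ± 0.71 for *dnj-7*, 33.8 ± 0.60 for *ire-1*, 11.1 ± 0.30 for *pek-1* and 7.33 ± 0.18 for *atf-6*. Only the neighbours *pdi-6* and *xbp-1* differed in EV by less than the sum of their SDs.

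The order of these RPKM levels changed under *cco-1* RNAi in 1 respect, in that *hsp-4* went from the third place to the sixth. Its RPKM was 185 ± 2.14 there, under *enpl-1* at 330 ± 9.63, *pdi-6* at 225 ± 4.81 and *xbp-1* at 202 ± 5.91, and every neighbour in the order differed by more than the sum of the SDs. With *his-3* RNAi the order was that of EV, but *hsp-4* at 285 ± 1.97 and *enpl-1* at 265 ± 20.04 were no longer apart by this measure, nor were *pdi-6* at 217 ± 7.71 and *xbp-1* at 201 ± 10.7.

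The normalized counts given for each library are reads scaled by edgeR's TMM factors to a library of average size, and they compare libraries for 1 gene at a time.

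**Figure D1:**
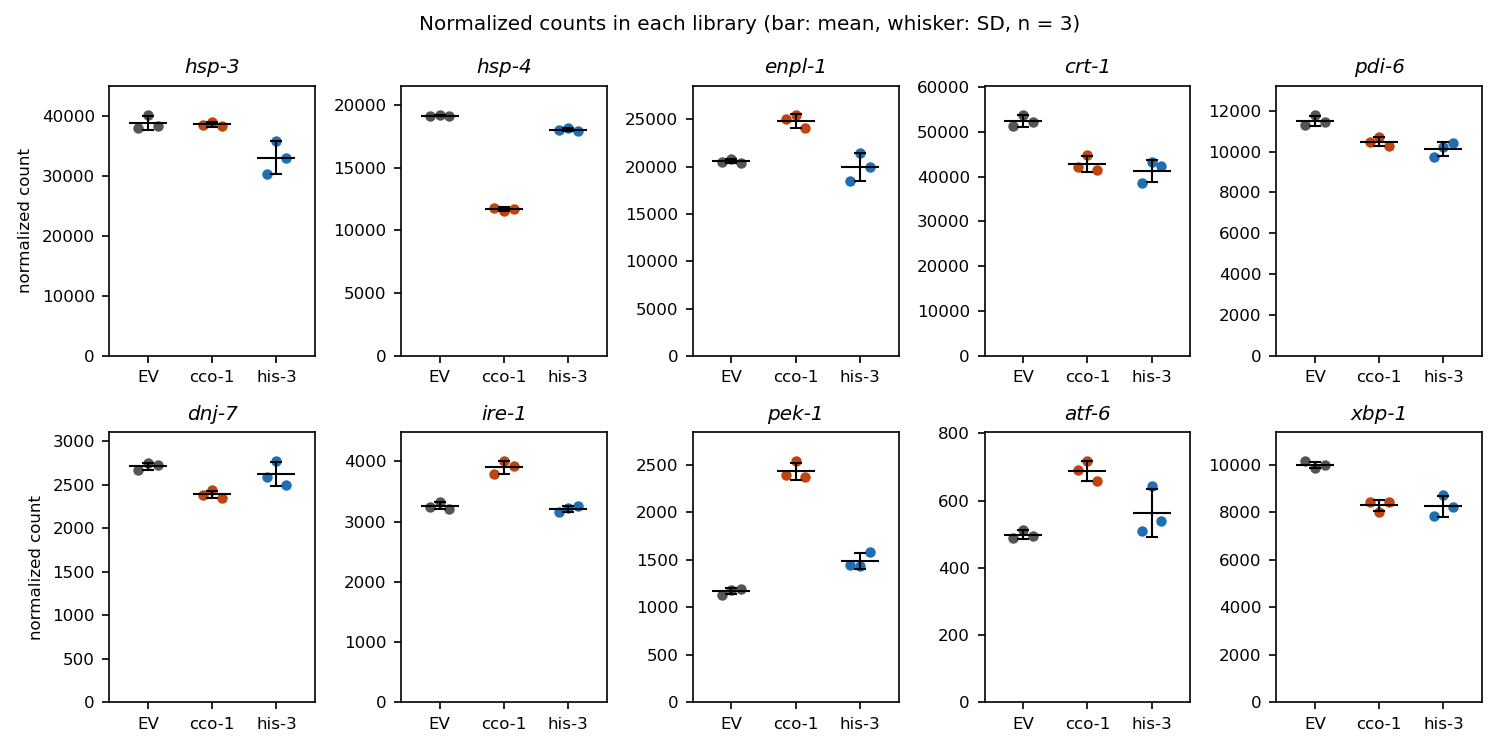
Normalized counts (linear axes from 0, a scale for each gene) of the 10 genes in each of the 9 libraries, with the mean and SD of the 3 libraries of a group. *hsp-4* is lowest and *pek-1* highest in the 3 *cco-1* RNAi libraries, with no overlap with the other groups.

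With *cco-1* RNAi the sensors rose and, on TMM scaling, most of the chaperones fell. All 3 sensor genes were higher than in EV, most of all *pek-1* with a fold of 2.08, while *hsp-4* fell by 38.9% and *crt-1*, *pdi-6*, *dnj-7* and *xbp-1* fell, with log2 fold changes between -0.14 and -0.29. *enpl-1*, the ER member of the HSP90 family, was the only chaperone that rose, and *hsp-3* passed the test in neither direction. So 4 of the 10 genes were higher and 5 lower (edgeR's quasi-likelihood test, adjusted p under 0.05), where 34.9% of all tested genes were called higher and 35.9% lower. With upper quartile or library size only the counts were 4 higher and 3 lower, and with scaling to *act-1* and *pmp-3* 5 higher and 1 lower, *hsp-4*. Of all 16817 genes these scalings, in the same order, called 6894, 6925 and 7529 higher and 5289, 5210 and 4552 lower. In 9 of the 10 the libraries of the groups did not overlap, as was the case in 75.7% of all genes. These shares are not far from the background, and it is the direction and size for each gene that the following describes. None of the 10 passed the threshold of the study, a change of 2 or more on the log2 scale, which 10.9% of all genes passed.

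With *his-3* RNAi the changes were smaller. *crt-1*, *xbp-1*, *hsp-3* and *pdi-6* fell, with log2 fold changes between -0.19 and -0.34, and *pek-1* rose by 0.34, whereas *hsp-4*, *enpl-1*, *dnj-7*, *ire-1* and *atf-6* did not pass the test. These are 1 of 10 genes higher and 4 lower, against 26.9 and 27.9% of all genes (edgeR's quasi-likelihood test), and the libraries did not overlap in 6 of the 10, against 60.0% of all genes. At the threshold of the study 0 of the 10 and 3.95% of all genes were called. The falls depended on the scaling of the libraries. With library size only, 6 of the 10 genes were called higher and 1 lower, and with scaling to *act-1* and *pmp-3* 6 higher and 0 lower. Of all 16817 genes, 8373 were called higher and 2457 lower with library size only, and 9450 and 1827 with *act-1* and *pmp-3*.

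In the direct test of *cco-1* RNAi against *his-3* RNAi, the 3 sensors, *enpl-1* and *hsp-3* were higher under *cco-1* RNAi and *hsp-4* and *dnj-7* lower, while *crt-1*, *pdi-6* and *xbp-1* did not pass the test. That is 5 higher and 2 lower, against 31.8 and 36.8% of all genes (edgeR's quasi-likelihood test). *hsp-3* lost its call with library size only (0.10, adjusted p = 0.0669) and with *act-1* and *pmp-3* (adjusted p = 0.167), *atf-6* with *act-1* and *pmp-3* (0.17, adjusted p = 0.064), and *xbp-1* was called lower with library size only (-0.12, adjusted p = 0.0235). Both treatments were compared with the same EV libraries, so their values are given side by side here and no likeness between them is drawn. The median log2 fold change of the 10 genes was -0.07 in both treatments against EV, and that of all tested genes was 0.01 and 0.02.

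**Figure D2:**
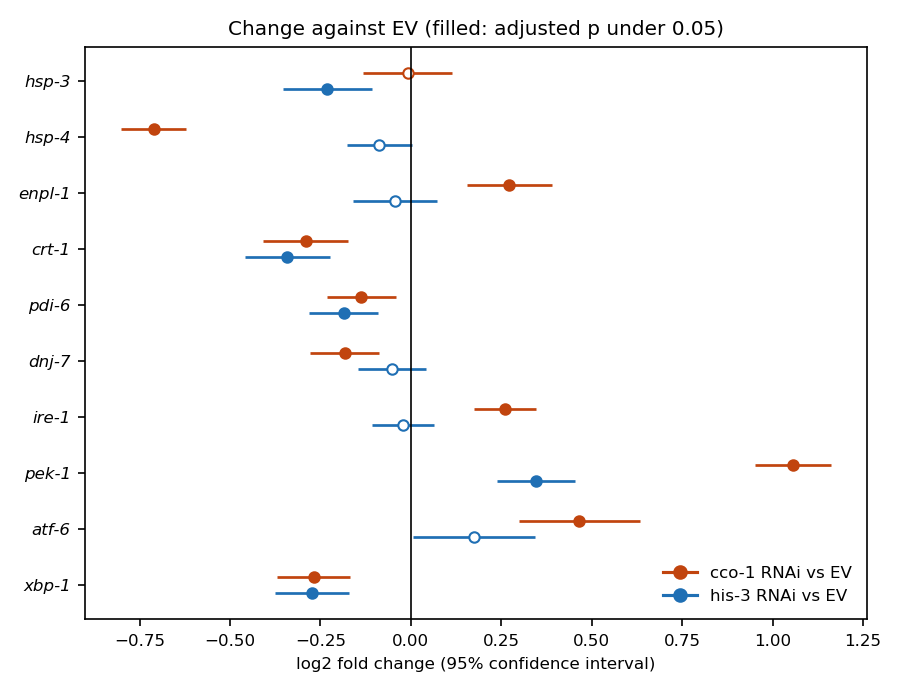
Log2 fold change against EV of the 10 genes, with the 95% confidence interval of edgeR, for *cco-1* RNAi (orange) and *his-3* RNAi (blue), filled where the adjusted p is under 0.05. The values run from -0.71 for *hsp-4* to 1.06 for *pek-1* under *cco-1* RNAi and from -0.34 for *crt-1* to 0.34 for *pek-1* under *his-3* RNAi, on TMM scaling; with *act-1* and *pmp-3* as the scaling genes, the *his-3* RNAi values of *hsp-3*, *hsp-4*, *enpl-1*, *pdi-6*, *dnj-7*, *ire-1* and *xbp-1* turn to above 0.

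The worm has a pair of genes for BiP, the HSP70 of the ER, which holds unfolded chains and also binds the sensors. In the WBcel235 build *hsp-3* lies on chromosome X (6089028 to 6092124, minus strand) and *hsp-4* on chromosome II (7350112 to 7352645, minus strand), and neither shares exons with another gene. *hsp-4* had 19127, 19197 and 19086 normalized counts in the EV libraries, 11803, 11539 and 11722 under *cco-1* RNAi, and 17989, 18144 and 17897 under *his-3* RNAi. All *cco-1* RNAi libraries lay far under the others, and the *his-3* RNAi libraries lay slightly under those of EV without overlap. The log2 fold change was -0.71 ± 0.04 (SE, n = 3 against 3) under *cco-1* RNAi (edgeR, adjusted p = 1.93e-10) and -0.09 ± 0.04 under *his-3* RNAi (edgeR, adjusted p = 0.0933). The direct difference between the treatments was -0.62 ± 0.04 (edgeR, adjusted p = 1.10e-09). For *his-3* RNAi the call turned with the tool and the scaling, since DESeq2 gave an adjusted p of 0.00461 at -0.12 and edgeR with library size only gave 0.13 with an adjusted p of 0.0089.

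*hsp-3*, the other BiP gene, did not follow *hsp-4*. Its normalized counts were 37903, 40162 and 38379 in EV, 38454, 38952 and 38302 under *cco-1* RNAi, and 30315, 35840 and 33040 under *his-3* RNAi. The *cco-1* RNAi libraries lay within the range of EV, and the *his-3* RNAi libraries were all lower and more widely spread than those of the other groups. The log2 fold change was -0.01 under *cco-1* RNAi (95% interval -0.13 to 0.11, edgeR, adjusted p = 0.895) and -0.23 ± 0.06 under *his-3* RNAi (edgeR, adjusted p = 0.00287). The latter lost its call with library size only (-0.01, adjusted p = 0.820). It turned to 0.06 (adjusted p = 0.435) with scaling to *act-1* and *pmp-3*.

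The share of *hsp-4* in the reads of the BiP pair compares both genes within a library and does not depend on the scaling of the libraries. It was 33.5, 32.3 and 33.2% in the EV libraries, 23.5, 22.9 and 23.4% under *cco-1* RNAi, and 37.2, 33.6 and 35.1% under *his-3* RNAi. The groups did not overlap, with the lowest shares under *cco-1* RNAi and the highest under *his-3* RNAi, where replicate 2 lay just above the highest EV library. The mean difference from EV was -9.77 percentage points under *cco-1* RNAi and 2.30 under *his-3* RNAi, each with p = 0.1 in a two-sided exact permutation test, the smallest p that 3 against 3 libraries allow. Per kilobase the differences were -10.5 and 2.41 points. The level of the pair together, in RPKM, was 816 ± 16.5 in EV, 695 ± 2.86 under *cco-1* RNAi and 722 ± 37.8 under *his-3* RNAi. Unlike the share, this sum depends on the scaling, here TMM. With *act-1* and *pmp-3* the sum was not taken. There *hsp-3* and *hsp-4* were at 0.16 and -0.55 (log2) under *cco-1* RNAi, and at 0.06 and 0.20 under *his-3* RNAi.

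**Figure D3:**
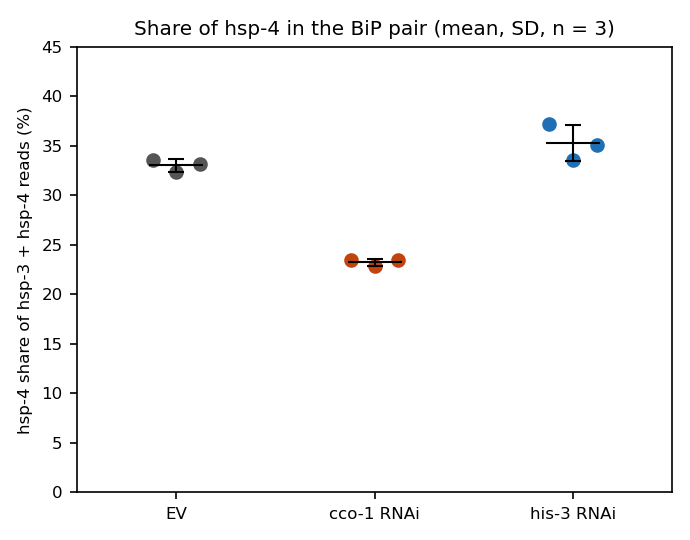
Share of *hsp-4* in the summed reads of *hsp-3* and *hsp-4* (percent, axis from 0) in each library, with mean and SD (n = 3 libraries a group). The *cco-1* RNAi libraries lie between 22.9 and 23.5%, under EV at 32.3 to 33.5% and *his-3* RNAi at 33.6 to 37.2%.

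*enpl-1* (chromosome IV, 11119298 to 11123155, plus strand) encodes the worm GRP94, the HSP90 of the ER lumen. It had 20519, 20767 and 20388 normalized counts in EV, 25006, 25457 and 24039 under *cco-1* RNAi, and 18433, 21447 and 19972 under *his-3* RNAi. The *cco-1* RNAi libraries were all above the others, and the *his-3* RNAi libraries lay on both sides of EV. Its log2 fold change was 0.27 ± 0.05 under *cco-1* RNAi (edgeR, adjusted p = 0.000311) and -0.04 ± 0.05 under *his-3* RNAi (95% interval -0.16 to 0.07; edgeR, adjusted p = 0.529). With library size only and with *act-1* and *pmp-3* the value of *enpl-1* under *his-3* RNAi was called higher (0.17 and 0.25, adjusted p = 0.00337 and 0.00156). *enpl-1* and *hsp-4*, both chaperones of the lumen, thus moved in opposite directions under *cco-1* RNAi, and there both kept their directions under all 5 scalings.

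*crt-1* (chromosome V, 6098992 to 6100542, minus strand) encodes calreticulin, the calcium-binding lectin chaperone that holds glycoproteins. Its normalized counts were 51168, 53751 and 52210 in EV, 42054, 44917 and 41485 under *cco-1* RNAi, and 38559, 43205 and 42264 under *his-3* RNAi. Both treatments lay under EV in every library and overlapped each other. Against EV, *crt-1* changed by -0.29 ± 0.06 (log2) under *cco-1* RNAi (edgeR, adjusted p = 0.000179) and -0.34 ± 0.06 under *his-3* RNAi (edgeR, adjusted p = 6.19e-05), and the direct difference of 0.05 had a 95% interval of -0.07 to 0.17. With scaling to *act-1* and *pmp-3* the values were -0.12 and -0.05 and passed the test in neither treatment.

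*pdi-6* (chromosome X, 7066342 to 7068563, minus strand) encodes a protein disulfide isomerase. It had 11314, 11796 and 11438 normalized counts in EV, 10464, 10704 and 10257 under *cco-1* RNAi, and 9727, 10215 and 10427 under *his-3* RNAi. All libraries of both treatments lay under those of EV. Against EV, the log2 change of *pdi-6* was -0.14 ± 0.05 under *cco-1* RNAi (edgeR, adjusted p = 0.0132) and -0.19 ± 0.05 under *his-3* RNAi (edgeR, adjusted p = 0.00235). The call under *cco-1* RNAi was lost without EV replicate 2 (adjusted p = 0.0502) or *cco-1* RNAi replicate 3 (adjusted p = 0.0591), and both directions turned with scaling to *act-1* and *pmp-3*. With upper quartile neither treatment passed edgeR's test, at -0.05 (adjusted p = 0.350) and -0.11 (adjusted p = 0.0554). Nor did they with library size only, at -0.04 (adjusted p = 0.374) and 0.03 (adjusted p = 0.484).

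*dnj-7* (chromosome X, 7194564 to 7198291, plus strand) encodes the worm P58IPK, a J-domain co-chaperone of BiP. Its normalized counts were 2668, 2744 and 2725 in EV, 2379, 2436 and 2350 under *cco-1* RNAi, and 2587, 2766 and 2495 under *his-3* RNAi. The *cco-1* RNAi libraries were the lowest, and the *his-3* RNAi libraries overlapped EV. Its log2 fold change was -0.18 ± 0.04 under *cco-1* RNAi (edgeR, adjusted p = 0.00152) and -0.05 ± 0.04 under *his-3* RNAi (95% interval -0.15 to 0.04; edgeR, adjusted p = 0.339). With upper-quartile scaling the value under *cco-1* RNAi was -0.09 and the call was lost (adjusted p = 0.0707), and with *act-1* and *pmp-3* it was -0.02 (adjusted p = 0.805). Under *his-3* RNAi *dnj-7* was called higher with library size only (0.17, adjusted p = 0.00282) and with *act-1* and *pmp-3* (0.24, adjusted p = 0.00105).

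Summed over the 6 chaperones, the level in RPKM was 2704 ± 56.9 in EV, 2371 ± 62.8 under *cco-1* RNAi and 2293 ± 125 under *his-3* RNAi, and the lowest EV library at 2656 was above the highest of the treated libraries at 2441. As a share of all reads on genes, without TMM scaling, the 6 genes took 0.473 to 0.479% in EV, 0.449 to 0.469% under *cco-1* RNAi and 0.461 to 0.492% under *his-3* RNAi. On this scale *cco-1* RNAi still lay under EV, and *his-3* RNAi overlapped it. With scaling to *act-1* and *pmp-3* the sum was not taken. There *hsp-4*, *crt-1* and *dnj-7* were at -0.55, -0.12 and -0.02 (log2) under *cco-1* RNAi. *enpl-1*, *hsp-3* and *pdi-6* were at 0.44, 0.16 and 0.03. Under *his-3* RNAi only *crt-1* was then under 0, at -0.05, so a fall of the sum is shown on TMM scaling only.

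*pek-1* (chromosome X, 11410176 to 11414887, minus strand) encodes the worm PERK kinase, and it changed the most of the 10 genes under *cco-1* RNAi. It had 1132, 1184 and 1190 normalized counts in EV, 2390, 2534 and 2369 under *cco-1* RNAi, and 1444, 1429 and 1580 under *his-3* RNAi. The 3 groups were fully apart, with EV the lowest and *cco-1* RNAi the highest. The log2 fold change was 1.06 ± 0.05 under *cco-1* RNAi (edgeR, adjusted p = 7.18e-12) and 0.34 ± 0.05 under *his-3* RNAi (edgeR, adjusted p = 2.32e-05), and the direct difference was 0.71 ± 0.05 (edgeR, adjusted p = 1.02e-09). Over the 9 fits that left out 1 library, the values lay between 1.03 and 1.07 under *cco-1* RNAi and between 0.29 and 0.37 under *his-3* RNAi.

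*ire-1* (chromosome II, 8112243 to 8124910, minus strand) encodes the kinase and endoribonuclease that splices *xbp-1*. Its normalized counts were 3241, 3325 and 3214 in EV, 3785, 3996 and 3927 under *cco-1* RNAi, and 3154, 3223 and 3252 under *his-3* RNAi. The *cco-1* RNAi libraries stood above the rest, and those of *his-3* RNAi overlapped EV. Its log2 fold change was 0.26 ± 0.04 under *cco-1* RNAi (edgeR, adjusted p = 2.21e-05) and -0.02 ± 0.04 under *his-3* RNAi (95% interval -0.11 to 0.06; edgeR, adjusted p = 0.664). The value of *ire-1* under *his-3* RNAi was called higher with library size only (0.20, adjusted p = 0.000376) and with *act-1* and *pmp-3* (0.27, adjusted p = 0.000363).

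*atf-6* (chromosome X, 12480948 to 12484904, plus strand) encodes the third sensor. It had the lowest counts of the 10 genes, with 490, 514 and 494 normalized counts in EV, 692, 717 and 658 under *cco-1* RNAi, and 509, 643 and 538 under *his-3* RNAi. Every *cco-1* RNAi library was above every other library, while 1 of the 3 *his-3* RNAi libraries lay within the range of EV. The log2 fold change was 0.47 ± 0.08 under *cco-1* RNAi (edgeR, adjusted p = 5.58e-05) and 0.17 ± 0.08 under *his-3* RNAi (edgeR, adjusted p = 0.0733). The latter passed the test without *his-3* RNAi replicate 1 (0.24, adjusted p = 0.0153), with upper quartile (0.25, adjusted p = 0.0123), with library size only (0.39, adjusted p = 0.000229) and with *act-1* and *pmp-3* (0.46, adjusted p = 4.32e-05).

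The summed level of the 3 sensors, in RPKM, was 52.3 ± 0.91 in EV, 73.7 ± 2.08 under *cco-1* RNAi and 55.7 ± 1.53 under *his-3* RNAi. The direct test between the treatments gave a higher level under *cco-1* RNAi for each sensor, by 0.71 for *pek-1*, 0.29 for *atf-6* and 0.28 for *ire-1* on the log2 scale (edgeR, adjusted p of 1.02e-09, 0.00304 and 9.04e-06).

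*xbp-1* (chromosome III, 4193809 to 4195358, plus strand) encodes the factor whose mRNA IRE-1 splices. It had 10130, 9845 and 9959 normalized counts in EV, 8425, 8002 and 8418 under *cco-1* RNAi, and 7838, 8714 and 8204 under *his-3* RNAi. All treated libraries lay under EV, and the treatments overlapped each other. Against EV, the log2 change of *xbp-1* was -0.27 ± 0.05 under *cco-1* RNAi (edgeR, adjusted p = 9.91e-05) and -0.27 ± 0.05 under *his-3* RNAi (edgeR, adjusted p = 0.000135), and the direct difference of 0.01 had a 95% interval of -0.10 to 0.11. With scaling to *act-1* and *pmp-3* neither value passed the test, at -0.10 and 0.02. With library size only the call under *his-3* RNAi was also lost (-0.06, edgeR, adjusted p = 0.273). The call under *cco-1* RNAi was kept there (-0.17, edgeR, adjusted p = 0.00186). Counts per gene add up spliced and unspliced *xbp-1* mRNA, as they do not measure the processing of ATF-6 or the phosphorylation by PEK-1, so the activity of the sensors was not measured.

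Of the 10 genes 3 share exon bases with a gene on the opposite strand, *crt-1* 92 with *smut-1*, *enpl-1* 23 with *spo-11* and *ire-1* 4 with *unc-105*. The libraries were stranded, and the strand setting of the counting is not given in the sources used here.

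The direction of several small changes depended on the scaling of the libraries, the large ones did not. The median log2 fold change of all tested genes moved from 0.01 with TMM to 0.10 with library size only and 0.17 with scaling to *act-1* and *pmp-3* for *cco-1* RNAi, and from 0.02 to 0.24 and 0.31 for *his-3* RNAi. The calls over all genes moved with it. With *cco-1* RNAi 5872 genes were called higher and 6040 lower with TMM, and 7529 and 4552 with *act-1* and *pmp-3*. With *his-3* RNAi there were 4525 and 4688 with TMM, 8373 and 2457 with library size only, and 9450 and 1827 with *act-1* and *pmp-3*. Relative to the median of all genes on TMM scaling, *pek-1* stood at 1.05 and 0.32 with *cco-1* and *his-3* RNAi, *hsp-4* at -0.72 and -0.11, *crt-1* at -0.30 and -0.36, *xbp-1* at -0.28 and -0.29, and *hsp-3* at -0.02 and -0.25.

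**Figure D4:**
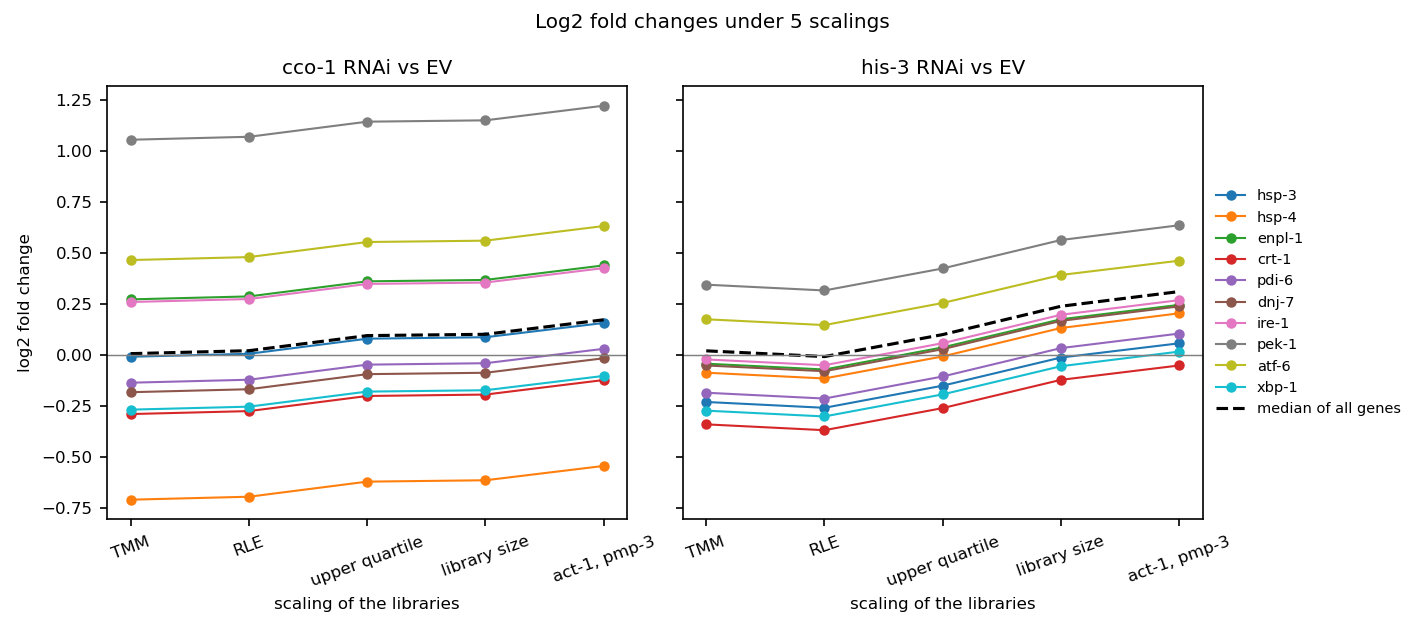
Log2 fold change against EV of the 10 genes under 5 scalings of the libraries, for *cco-1* RNAi (left) and *his-3* RNAi (right); the dashed line is the median of all tested genes. The lines run in parallel, and under *cco-1* RNAi *hsp-4* stays under and *pek-1*, *atf-6*, *enpl-1* and *ire-1* above 0 under all 5, while under *his-3* RNAi *pek-1* and *atf-6* alone stay above and *crt-1* alone stays under 0.

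The other genes of the ER and of its signalling were described by lists of genes taken by name. Counts are on TMM scaling and, where they differ, on the scaling to *act-1* and *pmp-3*. The latter raised all values and turned many of the small changes under *his-3* RNAi. The counts of all lists stand against those of all genes. On TMM scaling 34.9% were called higher and 35.9% lower under *cco-1* RNAi, and 26.9 and 27.9% under *his-3* RNAi. With *act-1* and *pmp-3*, 7529 of the 16817 genes were higher and 4552 lower under *cco-1* RNAi, and 9450 and 1827 under *his-3* RNAi. Among 9 other ER chaperones and glycoprotein folding factors, 1 was higher and 6 lower under *cco-1* RNAi, and 0 were higher and 7 lower under *his-3* RNAi (edgeR), with medians of -0.35 and -0.18. With *act-1* and *pmp-3* the counts were 3 higher and 5 lower, and 3 higher and 0 lower with a median of 0.12. The J-domain genes *dnj-28* and *dnj-20* were at -0.60 and -0.48 under *cco-1* RNAi. With *his-3* RNAi *uggt-1*, which reglucosylates misfolded glycoproteins, was at -0.35. Of 9 genes of the disulfide isomerase family and disulfide formation, 2 were higher and 6 lower under *cco-1* RNAi, and 0 higher and 6 lower under *his-3* RNAi, and with *act-1* and *pmp-3* 3 higher and 4 lower, and 3 higher and 2 lower. The thioredoxin-domain gene *txdc-12.1* fell most in both, by 2.32 and 0.63 on the log2 scale, *pdi-3* fell by 0.74 and 0.53, and C14B9.2, a disulfide isomerase gene, rose by 0.70 under *cco-1* RNAi.

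The machinery that carries proteins into the ER was lower in nearly all genes on TMM scaling. Of 16 genes of the Sec61 channel, the translocon-associated complex, signal peptidase and oligosaccharyl transferase, 15 were lower under *cco-1* RNAi and 16 under *his-3* RNAi (edgeR), with medians of -0.45 and -0.40. With *act-1* and *pmp-3* 11 and 5 of the 16 stayed lower, with medians of -0.28 and -0.11. The translocon-associated genes *trap-2* and *trap-1* were at -1.20 and -1.07 under *cco-1* RNAi, and *sec-61.B*, a Sec61 subunit, and *dad-1*, a transferase subunit, at -0.72 and -0.41 under *his-3* RNAi. The exception under *cco-1* RNAi was the signal peptidase subunit *spcs-1* at 0.23, named here after its value was seen. Genes of ER-associated degradation moved less, with 3 of 15 higher and 7 lower under *cco-1* RNAi and 0 higher and 10 lower under *his-3* RNAi. With *act-1* and *pmp-3* the counts were 6 higher and 2 lower, and 5 higher and 0 lower. That scaling called 7529 and 9450 of all 16817 genes higher, so these counts are not read as a rise of the list. Among them C47E12.3 was at 0.88 under *cco-1* RNAi, and the derlin gene *cup-2* at -0.70 with *cco-1* and -0.30 under *his-3* RNAi.

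The secretory cargo of the cuticle has folding factors of its own. Of 10 genes that modify or fold collagens in the ER, 8 were lower under *cco-1* RNAi and 7 under *his-3* RNAi, and 1 was higher in each (edgeR), with medians of -0.96 and -0.27. With *act-1* and *pmp-3* 7 and 2 were lower, with medians of -0.80 and 0.02. The prolyl isomerase genes *fkb-4* and *fkb-3* were at -2.34 and -1.49 under *cco-1* RNAi and the prolyl hydroxylase subunit *dpy-18* at -1.82, while under *his-3* RNAi *fkb-3* and *dpy-18* were both at -0.49. The gene higher in both was the cyclophilin *cyn-6* at 0.68 and 0.25, again named after its values were seen. Of the abu genes, named for their activation when the UPR is blocked, all 12 that were tested were lower under *cco-1* RNAi, past the threshold of the study, and 10 of 12 were lower under *his-3* RNAi (edgeR), with medians of -4.26 and -0.41, and with *act-1* and *pmp-3* 12 and 3 were lower. *abu-12* and *abu-13* were at -6.53 and -4.62 under *cco-1* RNAi, and *abu-2* and *abu-4* at -1.58 and -1.39 under *his-3* RNAi. The other 2 of the 14 abu genes in the table had too few reads to be tested, and since the genes resemble each other and reads with several places were left uncounted, the values of single abu genes are uncertain.

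The list of UPR signalling holds 9 genes, and a link of each to the sensors was not tested here. Of the 9, 5 were higher and 2 lower under *cco-1* RNAi and 2 higher and 4 lower under *his-3* RNAi (edgeR). With *act-1* and *pmp-3* the counts were 6 and 2, and 5 and 2. *hlh-11*, a helix-loop-helix factor, rose by 1.11 and 0.56 on the log2 scale, and the JNK-like kinase gene *kgb-1* by 0.50 under *cco-1* RNAi. *atf-4*, the factor whose translation is favoured when PEK-1 and other kinases phosphorylate eIF2 alpha, fell by 0.63 and 0.53, while *pek-1* itself was higher in both treatments. Chaperones of other compartments are given for comparison. The 3 genes of mitochondrial chaperones all rose under *cco-1* RNAi, *dnj-10* by 1.33 and *hsp-6* by 1.29, and all 3 fell under *his-3* RNAi, *hsp-60* by 0.41 and *dnj-10* by 0.28, whereas with *act-1* and *pmp-3* 1 of the 3 was higher and 0 lower under *his-3* RNAi. Of 5 cytosolic genes 1, *hsp-90* at 0.23, was higher under *cco-1* RNAi, and all 5 were lower under *his-3* RNAi, with *sti-1* at -0.37 and *hsp-1* at -0.34, but 4 of the 5 were higher under *cco-1* RNAi and 1 higher and 0 lower under *his-3* RNAi with *act-1* and *pmp-3*.

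**Figure D5:**
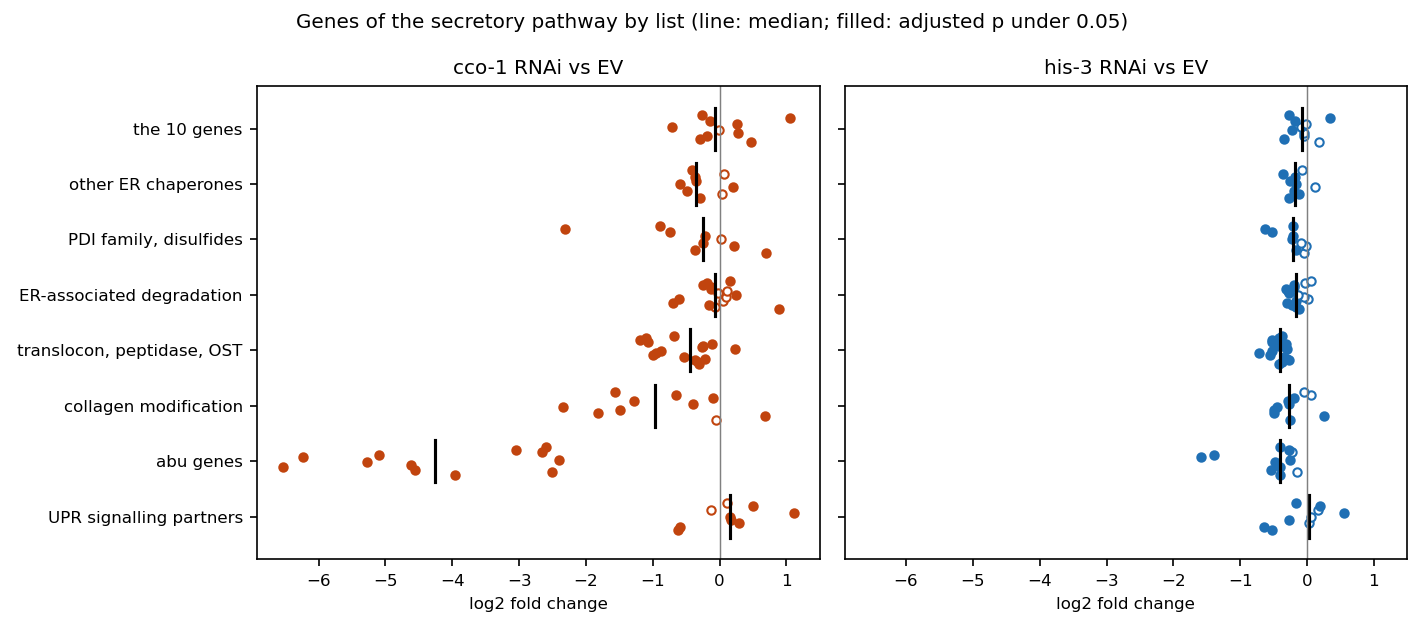
Log2 fold change against EV of each tested gene of 8 lists, for *cco-1* RNAi (orange) and *his-3* RNAi (blue), filled where the adjusted p is under 0.05, with the median of a list as a black line. The 10 genes have medians of -0.07 in both treatments, the translocation list -0.45 and -0.40 and the abu genes -4.26 and -0.41, on TMM scaling (-0.28 and -0.11 for translocation and -4.09 and -0.12 for abu with *act-1* and *pmp-3*); OST is the oligosaccharyl transferase.

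The markers of tissues moved with the treatments to unlike degrees. The hypodermis and cuticle markers, of which 2 of 5 were higher and 3 lower under *cco-1* RNAi, summed to 28712 to 29698 normalized counts in EV, 8457 to 11370 under *cco-1* RNAi and 29677 to 35870 under *his-3* RNAi. The adult cuticle collagen *col-19* was down to 4.09 normalized counts in the lowest library, and of the yolk genes *vit-3* to 2.05, and no marker of any list was at 0 in a library. The 5 intestine markers, 4 higher and 1 lower under *cco-1* RNAi and all lower under *his-3* RNAi, summed to 54736 to 58631 in EV, 98102 to 102268 under *cco-1* RNAi and 33248 to 39142 under *his-3* RNAi. The 6 yolk genes were lower in both, from 82052 to 95703 in EV to 7108 to 9087 and 24003 to 26500. Body wall muscle markers, 3 of 4 lower in both, went from 318610 to 356309 to 247203 to 257140 and 224166 to 254823. Pharynx markers, 2 of 3 higher under *cco-1* RNAi, summed to 21907 to 24428 in EV, 34109 to 34575 and 21493 to 23975. Sperm markers, 5 of 5 lower under *cco-1* RNAi, summed to 8475 to 8576, 6058 to 6321 and 8755 to 9094. Germline markers, 1 of 6 higher and 3 lower under *cco-1* RNAi, summed to 46696 to 47363, 40195 to 41136 and 42810 to 45817. Neuron markers, 2 of 5 higher and 1 lower under *cco-1* RNAi, summed to 2481 to 2558, 2533 to 2616 and 2616 to 2742. Under *his-3* RNAi 3 germline markers were higher and 3 lower, so their sum does not show a common fall. There 2 hypodermis and cuticle markers were higher and 1 lower. Of the neuron, sperm and pharynx markers 2, 1 and 1 were higher and 0 lower. These calls and sums are on TMM scaling. With *act-1* and *pmp-3*, 4 intestine markers were higher and 0 lower under *cco-1* RNAi, and 0 higher and 3 lower under *his-3* RNAi. Of the 4 muscle markers 3 and 2 were then lower. Germline markers were 2 higher and 1 lower under *cco-1* RNAi, and 4 higher and 1 lower under *his-3* RNAi. Sperm markers were 4 lower under *cco-1* RNAi and 4 higher under *his-3* RNAi. Under *his-3* RNAi 5 neuron, 3 pharynx and 4 hypodermis markers were also higher, and 1 hypodermis marker lower. That scaling called 9450 of all 16817 genes higher under *his-3* RNAi. The part of tissues and of developmental stage in the changes of the ER genes was not tested, and in whole worms fewer cells of a type and less RNA per cell cannot be told apart.

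The genes whose levels over the 9 libraries were most like that of *hsp-4* were *col-115*, a cuticle collagen, T06D8.10, R12E2.15, F53F1.4 and *grd-14*, a hedgehog-related gene, among 12167 genes with 100 or more normalized counts on average. Pearson's r of the log2 normalized counts was between 0.9996 and 0.9998, which describes the order and spacing of 3 groups that share their libraries and is given without a test. Their changes were much larger than that of *hsp-4*, between -4.43 and -6.48 under *cco-1* RNAi and between -0.52 and -0.79 under *his-3* RNAi. The genes most like *hsp-3* were *drr-2*, Y56A3A.2, the ribosomal protein gene *rpl-7A*, *cpf-2* and *rme-6*, with r between 0.966 and 0.970, which were between -0.06 and 0.06 under *cco-1* RNAi and between -0.20 and -0.27 under *his-3* RNAi.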

How the data were processed

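The authors prepared stranded libraries of polyadenylated RNA, sequenced the 9 on 1 lane, aligned the reads with STAR 2.5.3a to WBcel235 and counted reads per gene with HTSeq. The deposited table holds these raw counts, neither normalized nor filtered, for 46739 genes, and its 5 summary lines were left out. Reads with several alignments, 6.30 to 7.27% of the reads of a library, were uncounted. Genes for which over 3 libraries held over 5 reads each were tested with edgeR 4.0.16 in R 4.3.3, with TMM scaling, 1 fit of all 9 libraries, a prior count of 0.125 and the quasi-likelihood F test, and the adjusted p is Benjamini-Hochberg over all 16817 genes. The study names limma, and limma-voom (3.58.1) and DESeq2 (1.42.0) were alternatives. Standard errors are the fold change over the square root of F. Normalized counts are counts scaled to the mean effective library size of 28345400. The biological coefficient of variation was 4.92%, and for *atf-6*, with the lowest counts of the 10 genes, counting error adds to it. The procedure was also run on simulated counts with the same dispersion for every gene. That run checks the code, its results are not given here, and it does not bear on the noise of these libraries.

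The 10 genes and all lists were chosen with earlier results of these data known. From each list the text names genes among the 2 with the lowest p in each treatment against EV, beside all 10 genes, the 5 genes most like *hsp-4* and *hsp-3*, and *spcs-1* and *cyn-6*, which were named after their values were seen. Positions come from the Ensembl annotation of WBcel235. Promoter sequences were not analysed here.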

Additional observations from a re-analysis of the deposited data

How the results depend on the processing

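Of the 660 values of the 10 genes under alternatives, 572 kept direction and call, 45 lost the call, 8 gained it, 15 changed sign and were called on 1 side or both, and 20 changed sign but were called on neither. Of the 45 lost calls, 21 came from the threshold of 2 on the log2 scale and 2 from adjusted p under 0.01. Those 2 settings reuse the main fit, so no direction could change there. The cause of the other changes was not tested. At a log2 fold change of at least 2, 0 of the 10 genes were called in any comparison, and 1836, 664 and 1525 of all genes with *cco-1* RNAi, with *his-3* RNAi and between the treatments. Genes lower with *cco-1* RNAi were 3 with upper quartile, 3 with library size only and 1 with *act-1* and *pmp-3*. Genes higher with *his-3* RNAi were 2 with upper quartile or a minimum of 50 reads, and 6 with library size only or with *act-1* and *pmp-3*; lower were 1 and 0 with the latter scalings. Between the treatments 3 were higher with *act-1* and *pmp-3*, and 1 was lower with DESeq2, its size factors, only the groups compared or adjusted p under 0.01. Leaving out 1 library gave 1 to 2 higher genes with *his-3* RNAi (2 without *his-3* RNAi replicate 1, which adds *atf-6*), and 1 to 2 lower between the treatments (1, losing *dnj-7*, without EV replicate 1, *cco-1* RNAi replicate 3 or *his-3* RNAi replicate 2). With *act-1* and *pmp-3*, signs of called values changed with *cco-1* RNAi for *hsp-3* (0.16, then called higher, adjusted p = 0.0309) and *pdi-6* (0.030), and with *his-3* RNAi for *hsp-3* (0.057), *hsp-4* (0.20), *xbp-1* (0.016), *ire-1* (0.27), *pdi-6* (0.10), *enpl-1* (0.25) and *dnj-7* (0.24). With library size only such signs changed with *his-3* RNAi for *hsp-4* (0.13), *ire-1* (0.20), *pdi-6* (0.033), *enpl-1* (0.17) and *dnj-7* (0.17), and between the treatments for *xbp-1* (-0.12).

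Libraries of the same replicate number did not deviate together (correlations -0.04 to 0.10 over 9 pairs; 5 of 18 correlated best with their own number). The replicate block changed none of the 30 calls of these genes, and *hsp-4* was at -0.71 with *cco-1* RNAi under the block.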
